A study of Mus musculus with 4 samples.

Results

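The cytosolic and mitochondrial heat shock chaperones described here are the 10 genes Hspa8, Hspa4, Hspa9, Hsp90aa1, Hsp90ab1, Hsph1, Hspb1, Hspd1, Hspe1 and Dnajb1. They were chosen by name, and each was read from the probe set that the platform annotation gives to that gene alone, taking the one with the highest mean over the 4 arrays where a gene had several. This left 9 of the 10 genes, out of 19937 genes with a probe set of their own, and all 9 lay above the signal filter (a mean log2 value of 6.42) that left 13956 genes to test. Hsp90ab1, the constitutive cytosolic Hsp90, had no such probe set in the annotation used here and was not analysed here.

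RNA came from primary neurospheres grown from the subventricular zone, the adult neurogenic region along the lateral ventricles, of C57BL/6 mice aged 9 to 12 weeks. In the first group of 2 arrays the cells were kept in 100 nM olaparib, an inhibitor of PARP1 and PARP2, in 0.01% DMSO, and in the second group of 2 arrays in 0.01% DMSO alone. Cells of both groups had received non-targeting siRNAs and, 4 h later, the pCLIG-Pax6 virus for 5 h, which carries Pax6, a transcription factor used to drive neuronal fate. Drug or solvent was present with the virus, through 36 h in suspension, and through the last 10 h, when the cells were plated on laminin without growth factors. Every group thus carried siRNA and Pax6. Sphere cultures hold a mixture of stem, progenitor and differentiating cells, and the drug was given to the whole culture. Both arrays of each group are labelled as biological replicates, with no word on whether separate animals or cultures were used. The p-values thus measure the spread between these arrays only, and for the most part that of all genes of like level.

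Heat shock proteins bind unfolded or partly folded proteins and help them fold, stay soluble or reach the mitochondrion. The transcription factor HSF1 is kept inactive by chaperones in unstressed cells, and when unfolded proteins draw those chaperones away it forms trimers that bind heat shock elements, inverted repeats of the letters GAA, in chaperone promoters. The cytosolic Hsp70 cycle is driven by J-domain proteins such as Dnajb1 and by nucleotide exchange factors of the Hsp110 class. In mitochondria, Hspa9 pulls in precursor proteins and the Hspd1 and Hspe1 chaperonin folds them.

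Across the chaperones as a group the differences were small, and Dnajb1 alone passed the test, higher with olaparib. In limma, with Benjamini-Hochberg adjustment over all 13956 genes and a threshold of 0.05, 1 of the 9 chaperones was higher and 0 were lower. Over all genes tested 2.84% were higher and 3.37% lower, and 1 gene of 9 is too few to be set apart from those shares. At an unadjusted p under 0.05 there were 5 chaperones, namely Dnajb1, Hspa9, Hspe1 and Hspb1 with positive changes and Hsph1 with a negative one, against 2660 of the 13956 genes. The median log2 change of the 9 was 0.18, with a range of -0.28 to 0.31, and the median over all genes tested was 0.0013. The median of the 9 was 0.133 under quantile normalization and 0.126 under cyclic loess normalization. The medians over all genes there were -0.0049 and -0.00059. Both olaparib arrays lay above both DMSO arrays in 5 of the 9 (Hspa4, Hspa9, Hspd1, Hspe1 and Dnajb1), against 23.2% of all genes tested, and below them in 1 (Hsph1), against 23.9% of all genes tested. In the other 3, Hspa8, Hsp90aa1 and Hspb1, the groups overlapped. No p is given for the chaperones as a list, since they were picked with earlier results of these arrays known.

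The position of the low values was uneven, because 7 of the 9 chaperones were lowest in DMSO replicate 1, while 22.8% of all genes tested were lowest there. The exceptions were Hsph1 and Hspa8, which were lowest in olaparib replicate 1. Without DMSO replicate 1 the median change of the 9 was 0.10, and without olaparib replicate 1 it was 0.11. The within-group SD of the chaperones had a median of 0.094 for olaparib and 0.065 for DMSO, beside 0.077 for olaparib and 0.048 for DMSO over all genes tested.

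**Figure D1:**
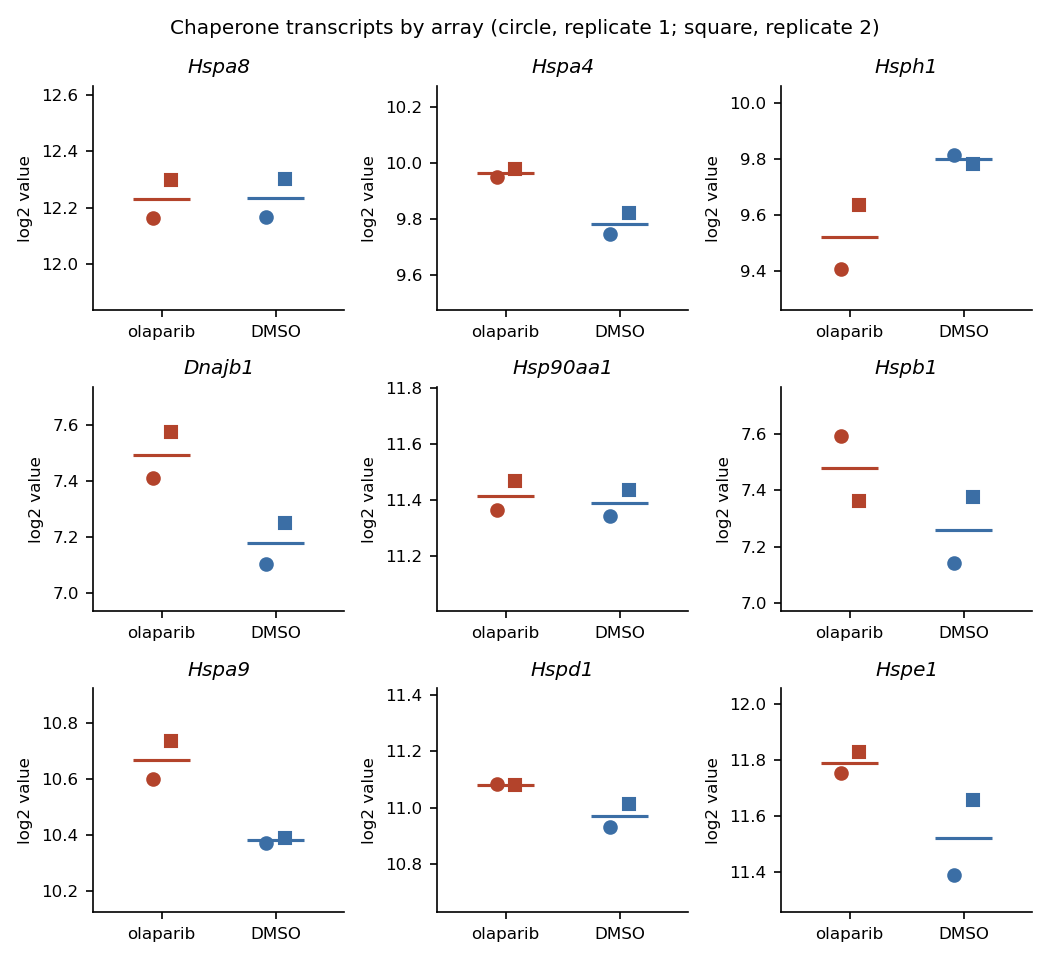
Log2 value (vertical axis, each panel spanning the same 0.8 log2 units) of the 9 chaperone genes in the olaparib and DMSO arrays, with circles for replicate 1, squares for replicate 2 and bars for the group means of n = 2. Dnajb1, Hspa4, Hspa9, Hspd1 and Hspe1 have both olaparib points above both DMSO points, Hsph1 has both below, and the points of Hspa8, Hsp90aa1 and Hspb1 overlap.

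**Figure D2:**
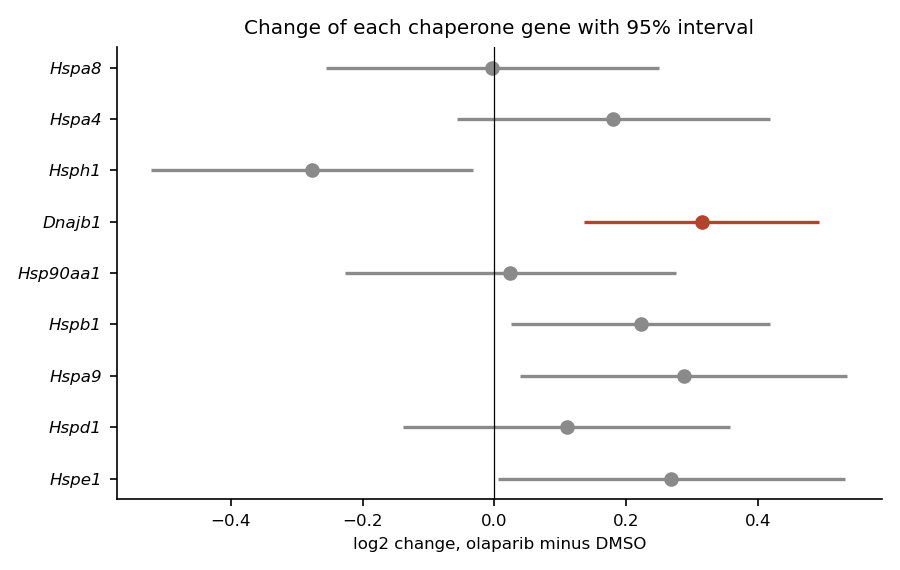
Log2 change (olaparib minus DMSO, horizontal axis) of the 9 chaperone genes, with points for the estimate and lines for the 95% interval from limma. The interval of Dnajb1, in red and past the adjusted threshold, runs from 0.14 to 0.49, and those in grey did not pass.

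As for the arrays and cultures themselves, Pearson's r across the genes tested was 0.993 for the olaparib pair, 0.996 for the DMSO pair, and at least 0.986 for pairs across the groups. Neural stem and astroglial markers had means from 7.20 to 12.7 with olaparib and from 7.25 to 12.7 with DMSO, with Prom1 and Hes5 at the low end, while 7 microglial markers stayed at means between 6.23 and 6.63 with olaparib and between 6.17 and 6.68 with DMSO. The 10 genes used for tissues other than brain had similar levels, with means that ran from 6.27 to 7.04 with olaparib and from 6.23 to 6.98 with DMSO. The 9 markers of neuroblasts and early neurons averaged 7.57 and 7.66 in the olaparib arrays, against 8.03 and 8.02 in the DMSO arrays, with 2 of 8 tested lower and 0 higher. The 9 stem and astroglial markers averaged 9.94 and 10.09 in the olaparib arrays, against 10.18 and 10.19 in the DMSO arrays, with 1 lower. That gene was Gfap, with a change of -1.03. Only Nes and Vim had positive changes, of 0.23 and 0.16. The rest were negative, from -0.031 for Fabp7 to -0.31 for Slc1a3, and did not pass. The 7 oligodendrocyte markers averaged 7.81 and 7.81 in the olaparib arrays, against 7.80 and 7.77 in the DMSO arrays, with 1 higher. The part of these shifts in the chaperone values was not tested. In bulk RNA, fewer cells of a type and less RNA per cell cannot be told apart.

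Promoter windows of 250 bases before to 50 bases after a start site were available from RefSeq (GRCm38.p6) for 6 of the 10 genes, Hspa4, Hspb1, Hspd1, Hspe1, Hsph1 and Dnajb1, with 9 windows in all. They were searched on both strands for a heat shock element of 2 units, GAANNTTC or TTCNNGAA, for its form of 3 alternating units, which contains overlapping 2-unit matches, and for the CCAAT box, a common promoter motif. A 2-unit element was found in 5 of the 9 windows, of Hspb1, Hspd1, Hspe1 and Hsph1, and in 15.1% of all 32851 windows of the table. The 3-unit form was found in 4 of the 9 windows, of Hspd1, Hspe1 and Hsph1, and in 0.603% of all windows. These windows are not independent, since those of Hspd1 and Hspe1 hold the same stretch and those of Hsph1 overlap. The genes were also chosen as HSF1-regulated and mitochondrial chaperones, so a higher share of heat shock elements is no separate finding. A CCAAT box was found in 4 of the 9 windows, of Dnajb1, Hsph1 and Hspd1, and in 37.4% of all windows. No match says only that these letters are missing from the window, and a match is not shown to be bound in these cells.

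**Figure D3:**
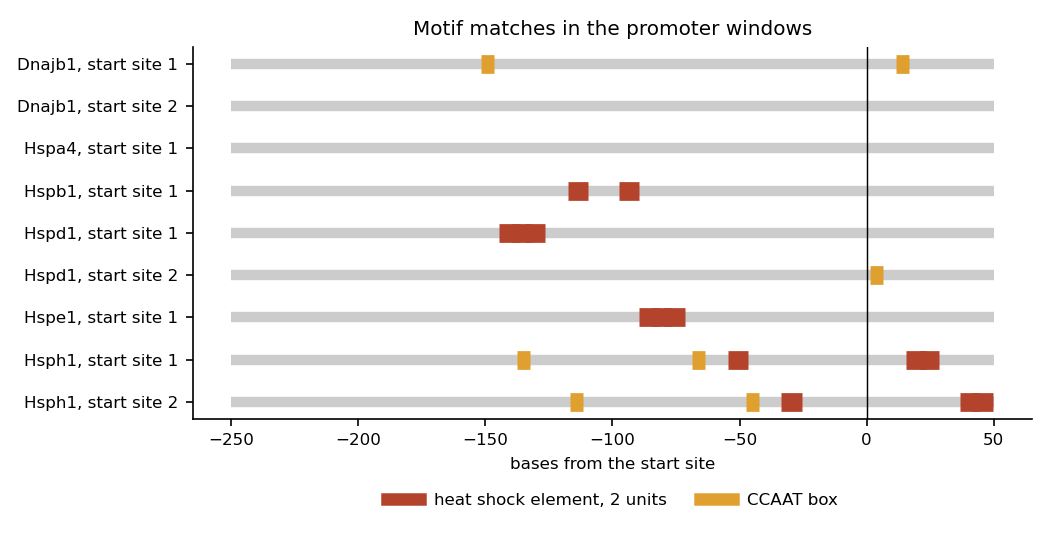
Motif matches by distance in bases from the start site (horizontal axis) in the 9 promoter windows of 6 chaperone genes, with red blocks for 2-unit heat shock elements, yellow blocks for CCAAT boxes and grey bars for the window from 250 bases before to 50 after the start. Joined red blocks are overlapping elements, seen for Hspd1, Hspe1 and Hsph1, and the windows of Dnajb1 hold no red block.

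Dnajb1, an Hsp40 that hands substrates to Hsp70 and stimulates its ATPase, lies at chr8:83608175-83612653 on the plus strand (GRCm38.p6, as for all coordinates here). Its log2 values were 7.41 and 7.57 in the olaparib arrays, against 7.10 and 7.25 in the DMSO arrays. Both olaparib arrays were thus above both DMSO arrays, with DMSO replicate 1 lowest of all. The group means were 7.49 ± 0.12 with olaparib and 7.18 ± 0.10 with DMSO (SD, n = 2 each). The log2 level of Dnajb1 rose by 0.31 (SE 0.085, 95% interval 0.14 to 0.49, limma adjusted p = 0.0305), a 1.24-fold change. Over 16 alternatives its change lay between 0.23 and 0.40 and its adjusted p between 0.00194 and 0.496. The call was lost in 6 of them. In 3, the array left out was olaparib replicate 2, DMSO replicate 1 or DMSO replicate 2. The others were no filter on low values (limma adjusted p = 0.0879) and eBayes without trend (0.0616). The last fitted every one of the 21704 probe sets that passed the signal filter (0.229). A floor on low values left the fit of Dnajb1 unchanged, and a threshold of 0.1 can only add calls. Neither of these alternatives could therefore take its call away. Dnajb1 has 1 probe set, so averaging of probe sets left its values as they were. Its values lay low on the array, where the genes of other tissues reached means of 7.04 with olaparib and 6.98 with DMSO.

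The stretch of 250 bases before the first Dnajb1 start site is shown because this was the gene past the threshold and because it holds neither form of the heat shock element. The capitals mark its CCAAT box, read on the minus strand, at positions -151 to -147 from the start. A second window of the gene, for a start site at position 83608548 of the chromosome, held none of the motifs, and a further CCAAT box of the first window lies at bases 12 to 16 after the start.
Dnajb1, chr8:83607925-83608174, plus strand: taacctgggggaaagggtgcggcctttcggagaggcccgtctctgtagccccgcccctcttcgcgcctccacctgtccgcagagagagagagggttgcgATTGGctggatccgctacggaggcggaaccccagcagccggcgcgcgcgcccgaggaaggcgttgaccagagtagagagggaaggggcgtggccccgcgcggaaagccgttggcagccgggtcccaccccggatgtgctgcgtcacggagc

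Hspa8 encodes the constitutive cytosolic Hsp70, which also strips clathrin from vesicles, and lies at chr9:40801276-40805202. Its log2 values were 12.16 and 12.30 in the olaparib arrays, against 12.17 and 12.30 in the DMSO arrays. The change was -0.0036 (SE 0.12, 95% interval -0.26 to 0.25, adjusted p = 0.997), and it was -0.11 under quantile and under cyclic loess normalization, where it did not pass either (adjusted p = 0.404 and 0.349). Its groups overlapped almost entirely, although the interval leaves room for a change of that size in either direction. The dimmer probe sets of the gene differed by -0.031 and 0.20, both with overlapping groups.

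The Hsp110 proteins Hspa4 and Hsph1, which release ADP from Hsp70 and keep unfolded proteins soluble, had changes of opposite sign, neither past the threshold. Hspa4, at chr11:53259814-53300479 on the minus strand, had log2 values of 9.95 and 9.98 in the olaparib arrays, against 9.75 and 9.82 in the DMSO arrays. Its change of 0.18 (SE 0.11, 95% interval -0.057 to 0.42) did not pass (adjusted p = 0.436). Hsph1, at chr5:149616843-149636498 on the minus strand, had log2 values of 9.41 and 9.64 in the olaparib arrays, against 9.81 and 9.78 in the DMSO arrays. It is the sole chaperone of the 9 in which both olaparib arrays were below both DMSO arrays. Its change was -0.28 (SE 0.12, 95% interval -0.52 to -0.032, adjusted p = 0.191). It passed as lower without olaparib replicate 2 (-0.39, adjusted p = 0.00588), under quantile normalization (adjusted p = 0.0179) and under cyclic loess normalization (adjusted p = 0.0200), and it was -0.16 without olaparib replicate 1. Over the 16 alternatives its adjusted p ran from 0.00588 to 0.908.

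Set against each other on the same arrays, the change of Hsph1 minus that of Hspa4 was -0.46, and the change of Dnajb1 minus that of Hspa8 was 0.32. The remaining such difference, Hspe1 minus Hspd1, was 0.16. These 3 pairs were picked after their values were seen, so the differences are a description with no test.

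Hsph1 is shown with its sequence because its change was the one of opposite sign with separated groups and because its window holds heat shock elements, which that of Hspa4 does not. The first stretch is the 250 bases before its downstream start site, where capitals mark a 2-unit element at positions -54 to -47 from that start. The 2 CCAAT boxes in it are left in lower case. The second is a short stretch after the start, where capitals mark the 3-unit element at bases 16 to 28. The downstream start, at 149636315, and the marked elements lie inside the span of the gene, which runs to 149636498.
Hsph1 before the start, chr5:149636316-149636565, minus strand: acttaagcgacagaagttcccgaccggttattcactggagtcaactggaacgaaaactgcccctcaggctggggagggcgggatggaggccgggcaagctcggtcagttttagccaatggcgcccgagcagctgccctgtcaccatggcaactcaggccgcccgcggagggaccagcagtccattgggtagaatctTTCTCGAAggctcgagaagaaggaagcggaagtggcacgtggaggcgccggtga
Hsph1 after the start, chr5:149636282-149636306, minus strand: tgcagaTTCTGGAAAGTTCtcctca

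Hsp90aa1, the stress-inducible cytosolic Hsp90 that matures kinases and steroid receptors, lies at chr12:110691036-110696395. Its log2 values were 11.36 and 11.47 in the olaparib arrays, against 11.34 and 11.44 in the DMSO arrays, so the groups overlapped. The change was 0.024 (SE 0.12, 95% interval -0.23 to 0.28, adjusted p = 0.961). The gene had 2 dimmer probe sets with changes of 0.15 and 0.37. On the second of these, both olaparib arrays, at 10.10 and 10.17, were above both DMSO arrays, at 9.50 and 10.03, with DMSO replicate 1 far below the other 3. Neither passed when all probe sets were fitted together (adjusted p = 0.730 and 0.423).

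Hspb1 encodes a small heat shock protein, which holds unfolded proteins without using ATP and binds actin and intermediate filaments, and lies at chr5:135887919-135889563 on the plus strand. Its log2 values were 7.60 and 7.36 in the olaparib arrays, against 7.14 and 7.38 in the DMSO arrays. One olaparib array was thus just below the higher DMSO array. Both groups were spread widely, at 7.48 ± 0.16 with olaparib and 7.26 ± 0.17 with DMSO (SD, n = 2 each). These values lay low on the array, where the genes of other tissues reached means of 7.04 with olaparib and 6.98 with DMSO. The change of 0.22 (SE 0.094, 95% interval 0.025 to 0.42) did not pass (adjusted p = 0.192), although without olaparib replicate 2 it was 0.34 (adjusted p = 0.0142). It was 0.11 without olaparib replicate 1 and 0.10 without DMSO replicate 1, and its adjusted p ran from 0.0142 to 0.999 over the alternatives. On the other probe set the groups were separated, at 7.43 and 7.37 in the olaparib arrays, against 7.25 and 7.23 in the DMSO arrays, a difference of 0.16 that did not pass in the fit of all probe sets (adjusted p = 0.436).

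The 250 bases before the Hspb1 start site are shown because they hold 2 separate heat shock elements, marked in capitals, at positions -117 to -110 and -97 to -90 from the start.
Hspb1, chr5:135887669-135887918, plus strand: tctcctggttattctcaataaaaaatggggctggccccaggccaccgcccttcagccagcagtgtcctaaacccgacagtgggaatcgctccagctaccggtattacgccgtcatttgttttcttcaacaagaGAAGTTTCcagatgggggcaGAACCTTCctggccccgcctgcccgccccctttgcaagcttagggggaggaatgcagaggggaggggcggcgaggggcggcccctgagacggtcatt

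Hspd1, the Hsp60 chaperonin ring of the mitochondrial matrix, and Hspe1, the Hsp10 lid that closes it, are neighbours on chromosome 1 and are transcribed away from each other, Hspd1 at chr1:55077833-55088243 on the minus strand and Hspe1 at chr1:55088148-55091317 on the plus strand. The 215 bases between the Hspd1 start site at 55087932 and the Hspe1 start site at 55088148 are shown because they lie before both genes. The capitals mark a run of alternating heat shock units that holds 2 overlapping 3-unit forms, at positions -89 to -72 from the Hspe1 start and -144 to -127 from the Hspd1 start. RefSeq also lists an Hspd1 start at 55088243, inside the Hspe1 gene, whose window held no heat shock element.
Hspd1 and Hspe1, chr1:55087933-55088147, plus strand: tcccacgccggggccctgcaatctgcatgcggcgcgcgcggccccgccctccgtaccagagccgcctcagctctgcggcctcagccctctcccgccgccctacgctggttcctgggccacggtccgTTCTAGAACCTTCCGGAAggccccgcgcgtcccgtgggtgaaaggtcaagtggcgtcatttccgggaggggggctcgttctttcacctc

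Hspd1 had log2 values of 11.08 and 11.08 in the olaparib arrays, against 10.93 and 11.01 in the DMSO arrays, a change of 0.11 (SE 0.12, 95% interval -0.14 to 0.36, adjusted p = 0.722). That change was 0.0025 under quantile normalization (adjusted p = 0.991), 0.028 under cyclic loess normalization and 0.069 without DMSO replicate 1. Hspe1 had log2 values of 11.75 and 11.83 in the olaparib arrays, against 11.39 and 11.66 in the DMSO arrays. Both genes thus had separated groups with olaparib above, and DMSO replicate 1 was lowest in each. The change of Hspe1 was 0.27 (SE 0.13, 95% interval 0.0048 to 0.53), which did not pass (adjusted p = 0.251), and it was 0.13 without DMSO replicate 1, 0.16 under quantile normalization and 0.17 under cyclic loess normalization. The dimmer probe sets of the pair gave 0.22 for Hspd1 and 0.24 for Hspe1, also with separated groups, and did not pass in the fit of all probe sets (adjusted p = 0.540 and 0.498).

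Hspa9, the mitochondrial Hsp70 of the import motor, also called mortalin, lies at chr18:34937414-34954351. Its log2 values were 10.60 and 10.73 in the olaparib arrays, against 10.37 and 10.39 in the DMSO arrays. Its DMSO arrays lay close together, at 10.38 ± 0.014, and both olaparib arrays were above them, at 10.67 ± 0.094 (SD, n = 2 each). The change of 0.29 (SE 0.12, 95% interval 0.039 to 0.53) did not pass (adjusted p = 0.179), though it did without olaparib replicate 1 (0.35, adjusted p = 0.0140). Under quantile normalization the change was 0.18, and the adjusted p ran from 0.0140 to 0.910 over the alternatives.

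For 5 of the chaperones, Hspa8, Hsp90aa1, Hspb1, Hspd1 and Hspe1, more than 1 probe set was annotated to the gene alone. Processed pseudogenes, near-identical copies elsewhere in the genome, are known for several chaperone genes, and the positions of the probes are not given in the sources used here. Whether a probe set reads the gene, a copy or both was not tested, so the values of these 5 are uncertain in that respect. The difference between probe sets was largest for Hsp90aa1, with changes between 0.024 and 0.37.

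**Figure D4:**
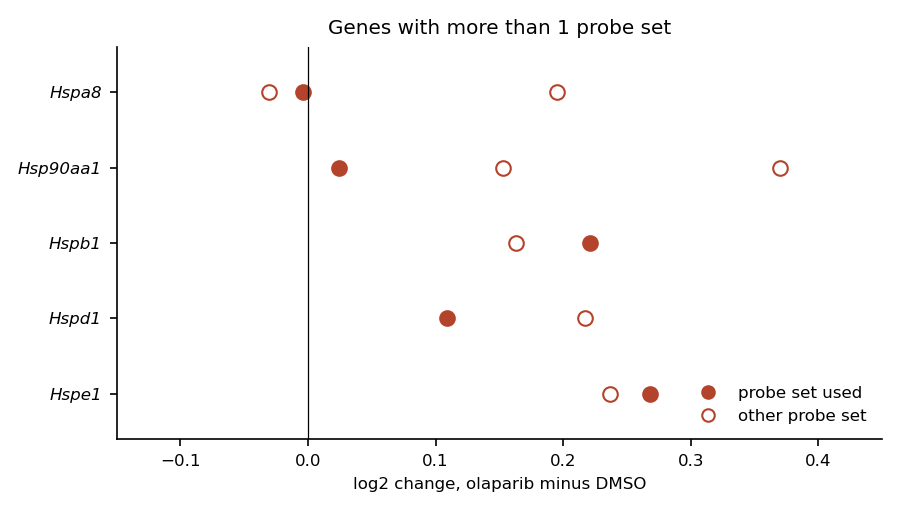
Log2 change (olaparib minus DMSO, horizontal axis) of every probe set of the 5 chaperone genes that had more than 1, with filled circles for the probe set used and open circles for the others. All probe sets of Hspb1, Hspd1 and Hspe1 lie above 0, those of Hspa8 lie on both sides of it, and those of Hsp90aa1 run from 0.024 to 0.37.

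The rest of the chaperone network is given by 10 lists of genes, and some genes are in more than 1 list. For comparison with the counts of each list, 2.84% of all genes tested were higher and 3.37% lower, and 7043 of the 13956 had positive changes. List medians, signs and separated groups were read on the deposited values only. The median of the 9 chaperones went from 0.18 to 0.133 under quantile normalization and 0.126 under cyclic loess normalization. Of the HSF1-inducible genes outside the 9 chaperones, 15 of 18 were tested, with 0 higher, 1 lower, 14 not past the threshold and a median change of 0.11. Their changes were positive in 10 and negative in 5. Both olaparib arrays lay above both DMSO arrays in 4 and below them in 1, beside 23.2% and 23.9% of all genes tested. The gene that fell was Hspb8, a small heat shock protein that works with Bag3 in removing aggregated proteins. Its log2 values were 9.62 and 9.73 in the olaparib arrays, against 10.35 and 10.39 in the DMSO arrays. The log2 level of Hspb8 fell by 0.70 (SE 0.12, limma adjusted p = 0.000743), with separated groups. It passed in 15 of 16 alternatives, the exception being the one that fits all probe sets (adjusted p = 0.0700). A floor on low values left the fit of Hspb8 unchanged, and a threshold of 0.1 can only add calls. Neither of these alternatives could therefore take its call away. Its partner Bag3, which links Hsp70 to small heat shock proteins, differed by 0.22 (SE 0.12, adjusted p = 0.344). It was 0.38 without olaparib replicate 1 (adjusted p = 0.00522) and 0.060 without olaparib replicate 2 (adjusted p = 0.775), and its highest adjusted p over the alternatives was 0.924.

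Hspa1a, the stress-inducible Hsp70 and one of the HSF1-inducible genes, had log2 values of 7.58 and 7.41 in the olaparib arrays, against 7.47 and 7.49 in the DMSO arrays. Its groups overlapped, and its change of 0.019 (SE 0.085, 95% interval -0.16 to 0.20) did not pass (adjusted p = 0.956). Its values lay low on the array, where the genes of other tissues reached means of 7.04 with olaparib and 6.98 with DMSO. The activity of HSF1 was not tested. Hspa1a is nearly identical to Hspa1b, which had no probe set of its own, so its value may include that gene. Stip1, the adaptor between Hsp70 and Hsp90, differed by 0.21 (adjusted p = 0.344). It was 0.31 without olaparib replicate 1, where it passed (adjusted p = 0.0267), and 0.12 without olaparib replicate 2 (adjusted p = 0.526), and its highest adjusted p was 0.999. Dnaja1, another J-domain protein, differed by 0.11 (adjusted p = 0.748) and by 0.0042 under quantile normalization. Hsf1 itself had no probe set of its own. Of the list of heat shock factors and their binding proteins, 3 of 6 genes were tested, with a median of 0.14, and 0 passed, with 0 also at an unadjusted p under 0.05.

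Among the other small heat shock proteins, 7 of 8 were tested and Hspb8 was the 1 that fell, with 0 higher and a median of -0.069. Their changes were negative in 6 of the 7, and both olaparib arrays lay below both DMSO arrays in 4 and above them in 0, beside 23.9% below and 23.2% above over all genes tested. The TRiC chaperonin folds actin and tubulin, and prefoldin delivers them to it. All 14 genes listed for them were tested, with 1 higher and 0 lower, beside 2.84% and 3.37% of all genes tested. Their median was 0.12. The changes of 13 of the 14 were positive, beside 7043 of the 13956 genes tested. In 8, both olaparib arrays were above both DMSO arrays, and in 0 below, beside 23.2% and 23.9% of all genes tested. Whether these signs hold for the list under quantile or cyclic loess normalization was not tested. Hspd1 and Dnaja1, with changes of 0.11 near the list median, were 0.0025 and 0.0042 under quantile normalization. The gene that passed was Pfdn4, a prefoldin subunit, with log2 values of 8.60 and 8.84 in the olaparib arrays, against 8.20 and 8.37 in the DMSO arrays. Pfdn4 rose by 0.44 (SE 0.11, limma adjusted p = 0.0176). It lost the call in 4 of 16 alternatives: leaving out DMSO replicate 1 (adjusted p = 0.465) or DMSO replicate 2 (0.0765), centring each array on its median (0.0549) and fitting all probe sets (0.191). A floor on low values left the fit of Pfdn4 unchanged and a threshold of 0.1 can only add calls, so neither could take its call away. Its change was 0.42 under quantile and under cyclic loess normalization.

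In the other 6 lists no gene passed in either direction. They were the other cytosolic Hsp70 and Hsp110 proteins (6 of 8 tested, median 0.0059, 1 at an unadjusted p under 0.05), the other cytosolic J-domain proteins (13 tested, median 0.081, 2 at that p), and the Hsp90 co-chaperones (16 of 17 tested, median 0.065, 2 at that p). Of all 13956 genes tested, 2660 were at that p. In those lists, in turn, both olaparib arrays lay above both DMSO arrays in 2, 4 and 4 genes. They lay below in 2, 1 and 2, beside 23.2% above and 23.9% below over all genes tested. The nucleotide exchange factors and Hip had a median of 0.026 over 8 genes, 1 of them at that p, with 3 above and 0 below. The other mitochondrial chaperones and proteases had a median of 0.090 over 16 genes, 3 of them at that p. Their changes were positive in 12 and negative in 4, and both olaparib arrays lay above both DMSO arrays in 8 and below them in 1, beside 23.2% and 23.9% of all genes tested. Trap1, the mitochondrial Hsp90, differed by 0.0078 (SE 0.10, adjusted p = 0.988). The ER chaperones had a median of -0.0069 over 19 genes, 2 of them at that p. Their changes were positive in 8 and negative in 11. Both olaparib arrays lay above both DMSO arrays in 5 and below them in 7, beside 23.2% and 23.9% of all genes tested. Hspa5, the Hsp70 of the ER, differed by -0.17 (SE 0.12, adjusted p = 0.503) and Hsp90b1, its Hsp90, by 0.14 (SE 0.12, adjusted p = 0.618).

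**Figure D5:**
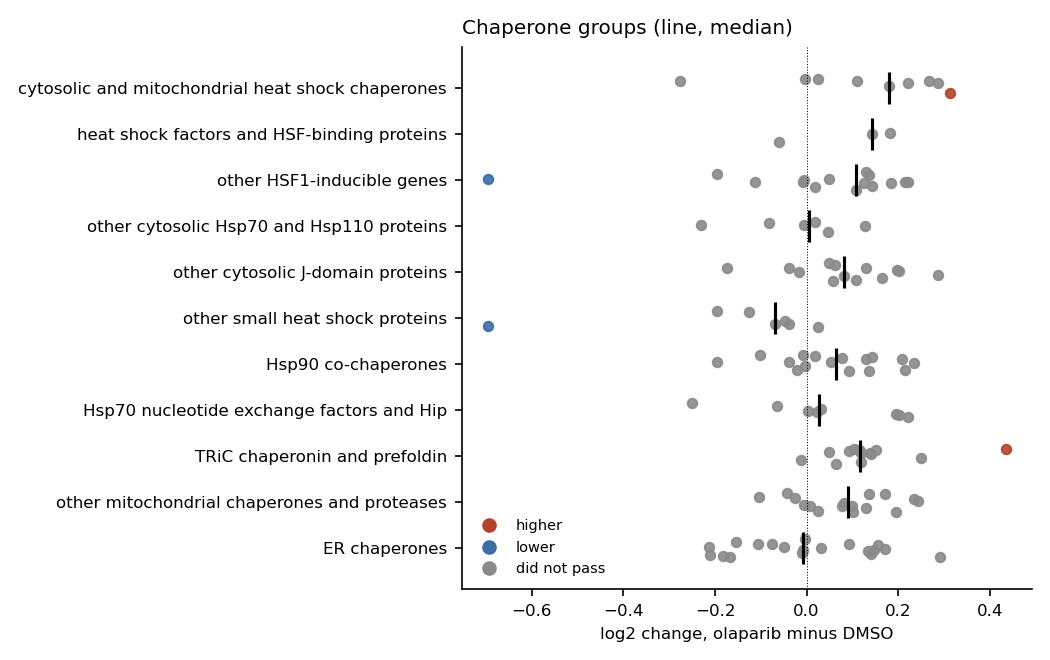
Log2 change (olaparib minus DMSO, horizontal axis) of every tested gene of the 9 chaperones and of 10 further chaperone lists. There is 1 point per gene in each list (vertical scatter has no meaning), and black lines mark list medians. Genes that are in more than 1 list are drawn in each. Red points passed as higher (Dnajb1 at 0.31 and Pfdn4 at 0.44), blue points passed as lower (Hspb8 at -0.70, which is in 2 lists), and grey points did not pass.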

How the data were processed

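For each array, 40 ng of total RNA was amplified, biotinylated and hybridised to an Affymetrix mouse gene array, per the labels' protocols. The deposited table holds the authors' log2 values, 1 per probe set and array. Background correction, normalization and probe summary are not given in the sources used here, so their effect was not tested. Precision is limited by having 2 arrays per group.

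Of 34760 probe sets, 21640 named 1 gene, 1321 named several and 11799 were unlisted. Names were updated through RefSeq (GRCm38.p6). A gene was read from its brightest probe set, and tested if that mean exceeded the 30th percentile. Changes are olaparib minus DMSO. The two-sided test was limma 3.58.1 (lmFit, then eBayes with a trend) in R 4.3.3, with Benjamini-Hochberg adjustment, and it was tested on simulated data. Residual degrees of freedom are 2, and the prior, taken from the trend over all genes tested, is worth 18.1. The SE, interval and p of a gene thus rest mostly on the spread of genes of like level. Replicate numbers were given in sample order and pair no arrays.

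Members and lists were chosen with earlier results of these data known. Named genes are the 10 members, 9 fixed network genes (Hsf1, Hspa1a, Hspa1b, Bag3, Dnaja1, Stip1, Trap1, Hspa5 and Hsp90b1) and up to 4 genes per list past the threshold. The 16 alternatives changed the filter, floor, normalization, centring, eBayes settings, array weights, probe set rule or threshold, or left out 1 array. Motifs were searched and figures drawn in Python 3.11.15 with matplotlib 3.10.9.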

Additional observations from a re-analysis of the deposited data

How the results depend on the processing

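The count of 1 chaperone higher with olaparib became 0 without a filter on low values and with eBayes without trend. It was also 0 with all probe sets fitted together. When 1 array was left out, the genes behind the count changed too. Without olaparib replicate 1, Hspa9 (0.35) passed beside Dnajb1 (0.40). Without olaparib replicate 2, Hspb1 (0.34) passed and Dnajb1 (0.23) did not. Without DMSO replicate 1, or without DMSO replicate 2, no chaperone passed as higher. The count of 0 lower became 1 under quantile normalization and under cyclic loess normalization, which was added after seeing the data, and ran from 0 to 1 when 1 array was left out. The gene gained as lower was Hsph1. Fitting all probe sets gave a prior worth 5.25 degrees of freedom instead of 18.1 and 21704 tests instead of 13956, and these were not separated. The cause of these shifts was not tested. The stricter filter, the floor, median centring, robust eBayes, array weights, averaging of probe sets and an adjusted p of 0.1 left both counts as they were.

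Over all genes, 397 were higher and 471 lower. There were 257 and 316 without a filter, 531 and 774 under quantile normalization, 533 and 732 under cyclic loess, 606 and 715 at an adjusted p of 0.1, and 1 and 13 probe sets when all were fitted. Leaving out olaparib replicate 1 gave 1274 and 838, olaparib replicate 2 gave 566 and 1032, DMSO replicate 1 gave 97 and 161, and DMSO replicate 2 gave 128 and 165.

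Changes near 0 turned sign. Hspa8 was 0.054 with the mean of its probe sets and ran from -0.071 to 0.064 when 1 array was left out. Hsp90aa1 was -0.063 under quantile normalization, -0.066 under cyclic loess and between -0.028 and 0.076 when 1 array was left out. Trap1 was -0.0086 under quantile normalization, -0.0055 under cyclic loess and between -0.076 and 0.091 with 1 array left out, where Hspa1a ran from -0.067 to 0.10 and Dnaja1 from -0.027 to 0.24. Hspa4, Hspa9, Hspb1, Hspd1, Hspe1 and Dnajb1 were positive and Hsph1 negative under all 16 alternatives, but many of these could not turn a sign. The filters, floor, eBayes settings, array weights, fit of all probe sets and threshold left every change as it was. Where groups were separated, leaving out 1 array cannot turn a sign either. The normalizations and centring could, as could averaging for genes with several probe sets. Hspd1 was only 0.0025 under quantile normalization, where Hsp90b1 was 0.056. A group reduced to 1 array adds nothing to the spread, so it is taken to vary as the other does. No paired analysis was possible because the labels tie no olaparib array to a DMSO array, and the replicate numbers used here were given in sample order.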
